A study of Mus musculus with 14 samples.

Results

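Tcf7 and Lef1 encode TCF-1 and LEF-1, the pair of TCF/LEF transcription factors that T cells express. Chromatin accessibility at both loci was examined in 132 windows of 240778, 42 at Tcf7 and 90 at Lef1. A window was counted to a gene when its centre had the start site of that gene as the nearest protein-coding start site, within 100 kb, in RefSeq coordinates of the mouse build GRCm38. Accessibility was measured by ATAC-seq, which reads open chromatin from where a transposase can cut and tag the DNA. The libraries were made from Treg cells of spleen and lymph nodes of Foxp3AID mice, whose Foxp3 protein carries an auxin-inducible degron. All mice had received 5-ph-IAA, the ligand that lets the receptor TIR1(F74G) mark the fusion protein for degradation. On day 3 there were 4 R26WT and 4 R26TIR1(F74G) mice, and on day 7 there were 3 R26WT and 3 R26TIR1(F74G) mice, with 1 library each. R26WT mice lack the receptor, so both groups share the Foxp3AID allele and the ligand. The Foxp3AID allele also encodes ZsGreen and Cre, and the receptor is switched on where Cre has removed a stop cassette, so it is limited to cells that express or have expressed Foxp3. The labels do not say whether the Treg cells were resting or activated.

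TCF-1 and LEF-1 bind DNA through a high mobility group domain. With β-catenin bound they act as activators, and with Groucho-type corepressors of the Tle family as repressors. In T cells they are known for their roles in thymic development, CD4 lineage choice and memory, and in Treg cells for high levels in resting cells and lower levels in activated ones. Foxp3 is a forkhead factor that defines the Treg lineage, and the comparison asked whether accessibility at the pair of loci differed once it was degraded.

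Total counts in the windows lay between 5653289 and 20184487 for each library. The lowest were R26TIR1(F74G) replicate 1 on day 3 (5653289) and R26WT replicate 3 on day 7 (6348754), and all others were at or above 11221502. Values are given as CPM, counts of a window scaled to the same total of counts in windows for every library, after TMM normalization over the 14 libraries. Start sites of the T cell genes Cd3e, Cd3g, Cd4 and Cd28 and of the Treg genes Il2ra, Ctla4 and Ikzf2 had a window within 2 kb in the table, at 4.55 to 21.5 CPM for the most accessible one. Foxp3 itself had no window within 2 kb of its start site. The B cell genes Ms4a1, Cd79a and Pax5, the myeloid genes Csf1r and Lyz2, and the NK cell genes Ncr1 and Klrb1c had none either. Ebf1 (B cells, 3.50 CPM), Cd14 (4.48), Spi1 (4.22), Itgam (1.12), Eomes (5.33), Cd8a (1.33) and Cd8b1 (12.5) had one. The summed level over the 3 myeloid markers with a window ranged from 9.15 to 11.7 CPM and from 9.0 to 9.43 in R26WT libraries of day 3 and day 7, and from 9.33 to 10.1 and from 9.24 to 10.0 in R26TIR1(F74G) libraries. For Ebf1, the 1 B cell marker with a window, the ranges were 2.51 to 3.76 and 2.52 to 5.55 in R26WT libraries and 2.76 to 5.22 and 1.60 to 3.69 in R26TIR1(F74G) libraries. The part of other cells in the values given here was not tested.

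Tcf7 lies on chromosome 11 (52246527 to 52283383, minus strand) and Lef1 on chromosome 3 (131110297 to 131224357, plus strand). The nearest protein-coding start sites next to Tcf7 are those of Skp1, 52.9 kb away, and Vdac1, 77.5 kb away, and those next to Lef1 are Hadh, 161.8 kb away, and Rpl34, 379.9 kb away. The windows are 201 bp from their first to their last coordinate and partly overlap, so that the 42 windows of Tcf7 form 32 separate regions and the 90 of Lef1 form 56. The median gene with windows had 8, and of 15878 such genes 686 had more than Tcf7 and 20 had more than Lef1. Mean accessibility over all libraries ranged from 1.46 to 22.3 CPM (median 5.48) at Tcf7 and from 0.823 to 26.9 CPM (median 3.03) at Lef1. By mean CPM, 5 windows of Tcf7 and 10 of Lef1 were among the top 10% of all windows. Only window positions relative to the start and end of the gene were used, and exons and introns were not told apart.

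The sequence is shown before the first start of Lef1, over which no window lies, and before 3 starts where windows overlap it. RefSeq's promoter table for GRCm38.p6 holds both genes, with 4 starts for Lef1 and 2 for Tcf7. Windows also overlap the stretch before the Tcf7 start 369 bp downstream, which is not shown. The 250 bases before 4 of the 6 starts follow, read 5′ to 3′ on the strand of the gene, with capitals for matches to the 6 motifs searched.
Lef1, first start, chr3:131110047-131110296, plus strand: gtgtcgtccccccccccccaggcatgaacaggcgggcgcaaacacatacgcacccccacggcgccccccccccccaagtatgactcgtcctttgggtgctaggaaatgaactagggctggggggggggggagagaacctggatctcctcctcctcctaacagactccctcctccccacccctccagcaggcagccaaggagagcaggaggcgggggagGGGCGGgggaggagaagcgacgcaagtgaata
Lef1, start 2494 bp downstream, chr3:131112541-131112790, plus strand: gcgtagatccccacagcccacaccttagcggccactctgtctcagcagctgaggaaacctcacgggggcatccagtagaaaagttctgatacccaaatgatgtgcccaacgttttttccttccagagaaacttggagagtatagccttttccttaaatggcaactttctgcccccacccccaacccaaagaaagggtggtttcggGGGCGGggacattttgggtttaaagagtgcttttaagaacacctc
Lef1, start 45997 bp downstream, chr3:131156044-131156293, plus strand: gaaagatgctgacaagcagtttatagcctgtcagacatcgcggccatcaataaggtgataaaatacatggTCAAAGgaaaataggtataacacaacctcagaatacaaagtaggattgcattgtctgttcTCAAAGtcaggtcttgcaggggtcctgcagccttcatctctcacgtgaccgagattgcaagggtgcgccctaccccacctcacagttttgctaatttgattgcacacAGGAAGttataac
Tcf7, start 788 bp downstream, chr11:52282596-52282845, minus strand: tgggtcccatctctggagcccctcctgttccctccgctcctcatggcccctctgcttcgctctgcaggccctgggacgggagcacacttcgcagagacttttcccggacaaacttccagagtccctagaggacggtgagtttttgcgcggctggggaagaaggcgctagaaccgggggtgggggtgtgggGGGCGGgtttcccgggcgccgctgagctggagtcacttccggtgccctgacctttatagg

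The motifs were CTTTGA (TCF/LEF), TGTTTAC (forkhead), TGTGGT (Runx), TGANTCA (AP-1), AGGAAG (Ets) and GGGCGG (GC box), on both strands, and no 2 matches overlapped in the 4 sequences. The capitals in the first, second and last sequence are each a GC box, which 33.0% of the 32544 promoter sequences of the table held in the same 250 bases. The stretch before the Lef1 start at 45997 bp held the TCF/LEF letters, on the opposite strand, beginning 180 and 120 bases before the start, and AGGAAG 13 bases before it. The TCF/LEF letters were in 13.9% of all promoter sequences and the Ets letters in 29.6%. None of the 4 held the forkhead letters (3.17% of all promoters), the Runx letters (14%) or the AP-1 letters (6.73%) in this stretch. The GC content was 66.4% before the first Lef1 start, 50.8% and 44.8% before the starts 2494 and 45997 bp downstream, and 64.4% before the Tcf7 start.

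The most open single windows of Tcf7 lay upstream of it, where the median was the lowest. The 16 windows over 2 kb upstream had a median of 3.67 CPM. The 15 within 2 kb of the start had 5.38 CPM, and the 11 further inside the gene had 6.16 CPM. The window 30930 bp upstream (chr11:52314213-52314414) had the highest mean of the gene, 22.3 CPM, and the one 16419 bp upstream (chr11:52299702-52299903) was next at 17.2 CPM. They were followed by 3 windows inside the gene, 7825, 14742 and 17643 bp downstream of the start, with 15.1, 14.2 and 10.8 CPM. The 15 windows within 2 kb of the start reached 6.85 CPM at most, at the window 40 bp downstream that covers the start site.

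At Lef1 the window with the highest mean, 26.9 CPM, was 90591 bp upstream (chr3:131019606-131019807). The windows 1799 and 2145 bp downstream of the start had 24.1 and 22.0 CPM. The overlapping windows 47264 and 47301 bp downstream, in the gene and close to the start shown above at 45997 bp, had 15.7 and 16 CPM. No window covered the first start site, and the nearest began beyond it, centred 613 bp downstream with 4.60 CPM. The 7 windows within 2 kb of the Lef1 start had a median of 6.40 CPM, the 32 further upstream 2.83 and the 51 further inside the gene 2.83. Among 30 genes, these 2 and 28 of the TCF pathway, Lef1 ranked 10 and Tcf7 15 by the mean CPM of their highest window. Genes above Lef1 included the kinase gene Gsk3b (80.5 CPM), the corepressor genes Tle1 (65.8), Tle4 (61.4) and Tle3 (29.2) and the scaffold genes Axin1 (44.7) and Axin2 (32.4). The other family members Tcf7l1 and Tcf7l2 stood at 12.6 and 11.9 CPM. All windows have the same length, so these levels can be compared per length.

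**Figure D1:**
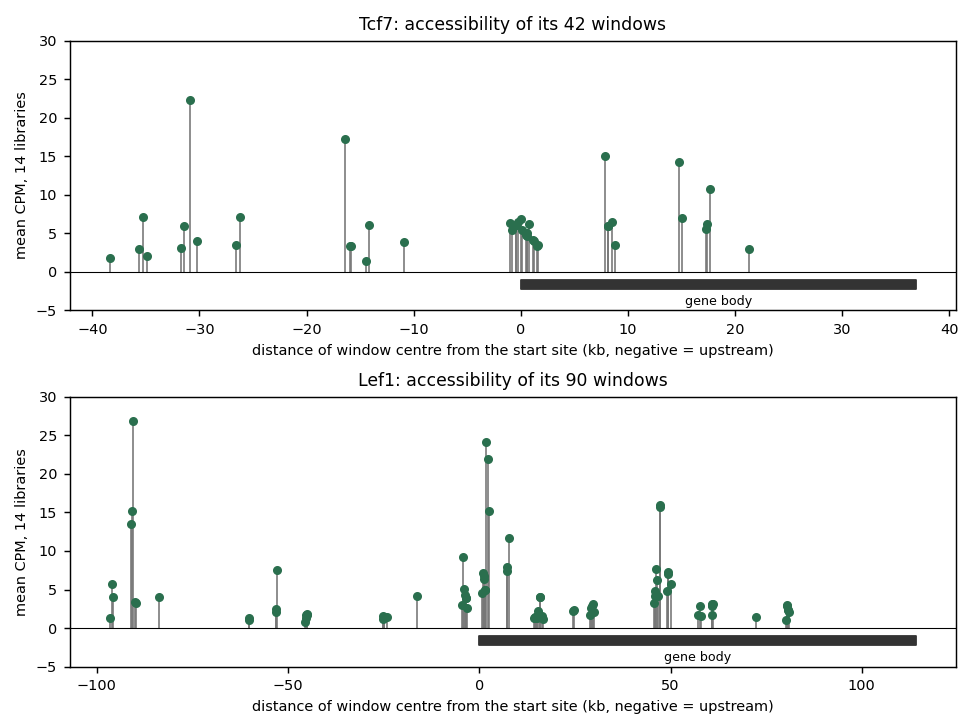
Mean CPM over the 14 libraries (vertical axis) of each window of Tcf7 and Lef1, by the distance of its centre from the start site in kb (horizontal axis), with each point 1 window and the bar the gene body. The highest points lie 30.9 kb upstream of Tcf7 (22.3 CPM) and 90.6 kb upstream of Lef1 (26.9 CPM).

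No window of Tcf7 or Lef1 passed the test in any of the 6 comparisons. The test was edgeR's quasi-likelihood test over every window with 10 or more counts on average, at an adjusted p (Benjamini-Hochberg) under 0.05, and DESeq2 called none either. Over both days DESeq2 gave an adjusted p for 22 of the 132 windows, and the other 110 could not be called by it. Between genotypes on day 7 the test called 0.00463% of all 237811 windows, on day 3 0%, and over both days, in a fit that includes day, 0.0112%. It called 0% for the interaction of genotype and day, 0.003% between days in R26WT mice and 0% between days in R26TIR1(F74G) mice. A count of 0 of 132 is therefore close to the background in each comparison. In bulk samples such as these, fewer cells with an open site and less opening per cell cannot be told apart.

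The 95% interval of the log2 fold change lay within a 2-fold change in either direction for 121 of 132 windows on day 7, for 123 on day 3 and for all 132 over both days. The median standard error was 0.18 at Tcf7 on each day, and 0.23 on day 7 and 0.21 on day 3 at Lef1. Log2 fold changes between genotypes ran from -0.45 to 0.63 at Tcf7 and from -0.40 to 0.64 at Lef1 on day 7, and from -0.56 to 0.40 and from -0.46 to 0.67 on day 3. Their median was 0.07 at Tcf7 and 0.11 at Lef1 on day 7, and -0.10 and -0.03 on day 3, against -0.006 and 0.007 over all windows tested.

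**Figure D2:**
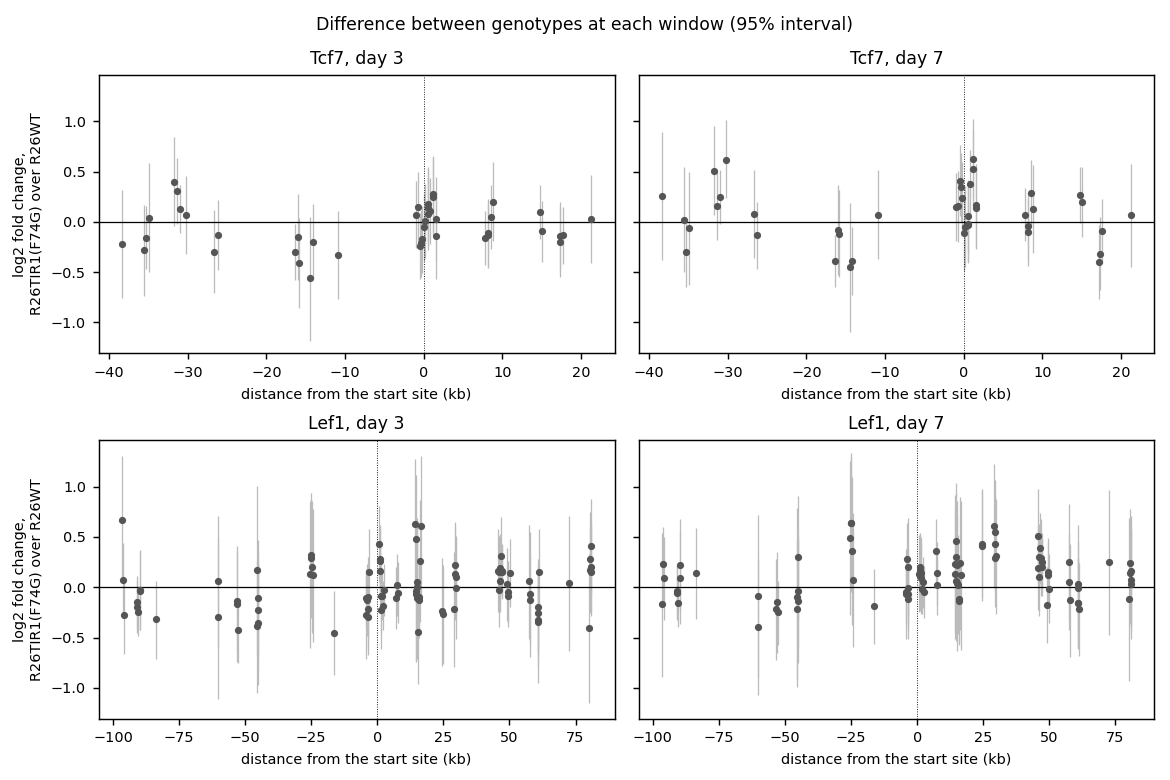
Log2 fold change of accessibility, R26TIR1(F74G) over R26WT (vertical axis), at each window of Tcf7 and Lef1 by distance from the start site in kb (horizontal axis), on day 3 and day 7. Points are estimates and bars 95% intervals, and the estimates lie between -0.56 and 0.67.

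Before adjustment, p was under 0.05 at 9 of 42 windows of Tcf7 on day 7 (21.4%) and at 4 of 90 of Lef1 (4.44%), against 5.96% of all windows. Of the 9, 6 were higher and 3 lower in R26TIR1(F74G) mice, and several overlap or neighbour each other and so share reads. On day 3 the counts were 1 of 42 (2.38%) and 5 of 90 (5.56%), against 7.55% of all windows. Over both days they were 9 of 42 and 6 of 90 (6.67%), against 6.73%. On day 7 the 3 R26WT and the 3 R26TIR1(F74G) libraries did not overlap at 9 windows of Tcf7 and 12 of Lef1, together 21 of 132, where 11.8% of all windows did the same. On day 3 the groups of 4 did not overlap at 1 window of Tcf7 and 5 of Lef1, where 4.1% of all windows did. Over both days no window of the pair separated the 7 R26WT from the 7 R26TIR1(F74G) libraries, as 0.116% of all windows did.

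The Tcf7 window 16419 bp upstream had the smallest adjusted p of the members over both days. On day 3 it had 16.4, 17.4, 17.1 and 22.0 CPM in R26WT mice and 21.2, 14.3, 12.7 and 13.1 CPM in R26TIR1(F74G) mice. Replicate 1 of the latter, the library of lowest depth, was above 3 of the 4 R26WT libraries, and the other 3 were below all 4. On day 7 it had 20.9, 20.6 and 18.9 CPM in R26WT mice and 14.4, 15.1 and 16.8 CPM in R26TIR1(F74G) mice, so that the groups did not overlap. The means were 18.2 ± 2.55 and 15.3 ± 3.99 CPM on day 3 (SD, n = 4 each) and 20.2 ± 1.10 and 15.5 ± 1.24 CPM on day 7 (SD, n = 3 each). The log2 fold change was -0.30 (95% interval -0.58 to -0.02, edgeR adjusted p = 0.634) on day 3 and -0.39 (-0.65 to -0.13, adjusted p = 0.684) on day 7. Over both days it was -0.34 (-0.54 to -0.14, adjusted p = 0.405). With both libraries of lowest depth left out, an alternative added after the data were seen, it was -0.44 with an edgeR adjusted p of 0.0271, the 1 call among the members in any setting. That setting called 113 of all windows, in place of 27.

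The 5 other windows between 10.9 and 16.4 kb upstream of Tcf7 had log2 fold changes in the same direction on day 3, so that all 6 were lower in R26TIR1(F74G) mice, with a median of -0.32. On day 7 5 of the 6 were lower, with a median of -0.25, and the one 10915 bp upstream stood at 0.07. This stretch was singled out after its values were seen, and none of its windows passed the test. The 4 windows between 30227 and 31704 bp upstream were higher in R26TIR1(F74G) mice on both days, by 0.07 to 0.40 on day 3 and by 0.16 to 0.62 on day 7 on the log2 scale, and were singled out in the same way. The most accessible of them, 30930 bp upstream, had 22.1, 24.1, 18.7 and 22.5 CPM in R26WT and 26.1, 22.1, 23.6 and 24.4 CPM in R26TIR1(F74G) mice on day 3. On day 7 it had 23.8, 18.2 and 16.2 against 21.7, 25.4 and 23.2 CPM, so that the groups overlapped on both days. Its log2 fold change was 0.13 (-0.11 to 0.37) on day 3 and 0.25 (-0.02 to 0.52) on day 7, with edgeR adjusted p-values of 0.857 and 0.854.

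On day 7 the Tcf7 windows 1208 bp downstream and 30227 bp upstream had the smallest p. The first had 3.17, 3.55 and 3.00 CPM in R26WT mice and 5.24, 5.36 and 4.70 CPM in R26TIR1(F74G) mice. The groups did not overlap, and the log2 fold change was 0.63 (95% interval 0.24 to 1.02, edgeR adjusted p = 0.651). On day 3 they did, with 4.16, 3.04, 3.35 and 3.48 CPM against 5.04, 4.13, 3.43 and 4.42 CPM, and the log2 fold change was 0.25 (-0.13 to 0.64). The second had 3.29, 3.20 and 3.90 CPM against 5.61, 5.13 and 4.91 CPM on day 7, a log2 fold change of 0.62 (0.24 to 1.01, edgeR adjusted p = 0.66), and 0.07 (-0.32 to 0.46) on day 3. Both are windows of moderate accessibility, with means of 4.0 and 4.05 CPM. The window 31402 bp upstream had the smallest p on day 3 after the one at 16419 bp, with a log2 fold change of 0.31 (-0.02 to 0.64, edgeR adjusted p = 0.69).

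At the window over the first start site and at the most accessible ones inside the gene, the intervals included 0. The window 40 bp downstream of the Tcf7 start had 6.98 ± 0.704 and 6.99 ± 1.94 CPM in R26WT and R26TIR1(F74G) mice on day 3 (SD, n = 4 each) and 7.09 ± 1.90 and 6.22 ± 1.52 CPM on day 7 (SD, n = 3 each). Its log2 fold changes were -0.05 (-0.39 to 0.28) and -0.11 (-0.49 to 0.26). The 3 most accessible windows inside the gene, 7825, 14742 and 17643 bp downstream, had log2 fold changes of -0.16, 0.10 and -0.13 on day 3 and of 0.07, 0.27 and -0.09 on day 7, with all 95% intervals including 0. The 4 windows overlapping the sequence shown before the Tcf7 start 788 bp downstream had log2 fold changes of 0.08 to 0.18 on day 3. On day 7 they had -0.03 to 0.38. Only the one 814 bp downstream covers that start, and it had 0.38 (95% interval 0.03 to 0.72) on day 7. The one 432 bp upstream had an interval above 0 on that day as well (0.06 to 0.77). So did those 1158 and 1208 bp downstream (0.15 to 0.91 and 0.24 to 1.02), which overlap. Thus 4 of the 15 windows within 2 kb were under an unadjusted p of 0.05 on day 7, against 5.96% of all windows. On day 3 it was 0, against 7.55%. The 15 windows form 8 separate regions. Within 2 kb of the Tcf7 start, 11 of 15 windows were higher in R26TIR1(F74G) mice on day 7 and 10 of 15 on day 3. Their medians were 0.16 and 0.07. Of all windows tested, 49.0% were higher on day 7 and 51.1% on day 3.

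At Lef1 the most accessible window, 90591 bp upstream, had 30.4, 29.4, 25.0 and 29.6 CPM in R26WT mice and 24.1, 24.2, 23.1 and 24.6 CPM in R26TIR1(F74G) mice on day 3. On day 7 it had 30.4, 27.5 and 29.8 CPM against 24.7, 27.3 and 26.6 CPM. All R26TIR1(F74G) libraries lay below all R26WT libraries of the same day, on both days. The log2 fold change was -0.25 (95% interval -0.49 to -0.02, edgeR adjusted p = 0.632) on day 3, -0.16 (-0.40 to 0.08, adjusted p = 0.908) on day 7 and -0.21 (-0.38 to -0.04, adjusted p = 0.63) over both days.

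The Lef1 window 52853 bp upstream (chr3:131057344-131057545) had the smallest p of that gene on day 3 and over both days. It had 6.58, 8.93, 7.65 and 9.27 CPM in R26WT and 6.29, 5.63, 6.86 and 5.63 CPM in R26TIR1(F74G) mice on day 3, with 1 R26WT library inside the range of the other group. On day 7 it had 9.04, 9.07 and 8.40 CPM against 6.52, 8.52 and 7.39 CPM. The log2 fold change was -0.43 (-0.75 to -0.11, edgeR adjusted p = 0.546) on day 3, -0.25 (-0.57 to 0.06, adjusted p = 0.88) on day 7 and -0.35 (-0.57 to -0.12, adjusted p = 0.502) over both days. Its neighbours 53160 and 53246 bp upstream stood at -0.14 and -0.17 on day 3 and at -0.15 and -0.22 on day 7.

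**Figure D3:**
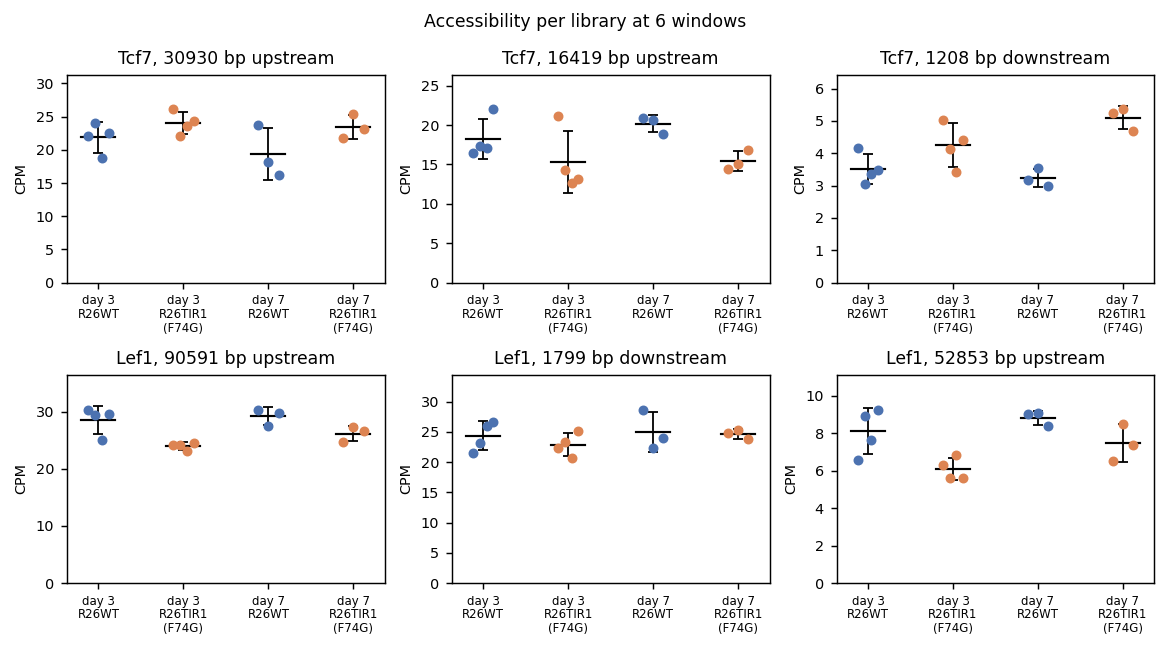
CPM of each library (points, vertical axis) at 6 windows of Tcf7 and Lef1, by day and genotype (horizontal axis), with the mean and SD as bars. At the Tcf7 window 16419 bp upstream the 3 R26TIR1(F74G) libraries of day 7 lie between 14.4 and 16.8 CPM and the 3 R26WT libraries between 18.9 and 20.9 CPM.

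Near the first start of Lef1 the intervals of the differences included 0, except at 1 window on day 3. The window 1799 bp downstream had 24.3 ± 2.39 CPM in R26WT and 22.9 ± 1.87 CPM in R26TIR1(F74G) mice on day 3 (SD, n = 4 each) and 25.0 ± 3.36 and 24.7 ± 0.754 CPM on day 7 (SD, n = 3 each). Its log2 fold changes of -0.09 (-0.33 to 0.15) and -0.02 (-0.27 to 0.23) lie in intervals narrower than a 2-fold change in either direction. The window 2145 bp downstream had log2 fold changes of -0.19 (-0.43 to 0.06) on day 3 and 0.05 (-0.21 to 0.30) on day 7. The window 2410 bp downstream, which covers most of the sequence shown before the start at 2494 bp, had 14.7 ± 0.857 and 14.4 ± 1.22 CPM on day 3 (SD, n = 4 each) and 16.4 ± 0.194 and 15.9 ± 0.767 CPM on day 7 (SD, n = 3 each). The window 613 bp downstream, where the interval left out 0 on day 3 but the test was not passed, had a log2 fold change of 0.43 (0.05 to 0.81, edgeR adjusted p = 0.615). Its values were 4.16, 4.37, 3.07 and 3.78 CPM in R26WT and 7.73, 5.04, 4.10 and 4.83 CPM in R26TIR1(F74G) mice, the highest in the library of lowest depth.

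Inside Lef1 most log2 fold changes of day 7 were positive, and no window passed the test. Of the 51 windows over 2 kb inside the gene, 40 had a positive log2 fold change on day 7 and 27 on day 3, with medians of 0.14 and 0.02. These 51 windows form 30 separate regions, and overlapping windows share reads. Over all windows tested, 49.0% were positive on day 7 and 51.1% on day 3. Of the 32 windows over 2 kb upstream, 13 were positive on day 7 and 10 on day 3, with medians of -0.05 and -0.13. The upstream windows were not uniform. The 5 between 24.2 and 25.3 kb upstream, which form 3 separate regions, were higher in R26TIR1(F74G) mice on both days. Their medians were 0.49 on day 7 and 0.2 on day 3, and their highest value was 0.64, on day 7. They had 1.51 CPM at most, and none had an unadjusted p under 0.05 on either day. This stretch was picked with its values known. On day 7 the windows of Lef1 with the smallest p lay 7184 and 46448 bp downstream. The first had 6.91, 6.92 and 6.0 CPM in R26WT and 9.63, 7.51 and 8.65 CPM in R26TIR1(F74G) mice on day 7, a log2 fold change of 0.36 (0.04 to 0.68, edgeR adjusted p = 0.814). The second had 5.17, 7.21 and 4.35 CPM against 7.54, 6.62 and 8.5 CPM, a log2 fold change of 0.39 (0.03 to 0.74, edgeR adjusted p = 0.82). The sequence shown before the start at 45997 bp, with the TCF/LEF letters, is overlapped by 3 windows, of which only the one farthest downstream covers the start. Their log2 fold changes were 0.10 to 0.51 on day 7 and -0.03 to 0.16 on day 3. The windows 47264 and 47301 bp downstream stood at 0.25 (-0.04 to 0.54) and 0.20 (-0.09 to 0.48) on day 7. On day 3 they stood at 0.15 (-0.12 to 0.42) and 0.16 (-0.11 to 0.43). The library of lowest depth was the highest of its day 3 group at both, at 24.5 and 25.0 CPM. On day 7 the other library of low depth, R26WT replicate 3, had 9.3 and 9.9 CPM, and the other R26WT libraries had 13.6 to 15.8 CPM. It was also the lowest R26WT library of day 7 at 7184 and 46448 bp.

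The differences between genotypes were compared between days, which share no mice. Over the 42 windows of Tcf7 the log2 fold changes of day 3 and day 7 had a Pearson correlation of 0.56, with the same sign at 28 (66.7%). Over the 90 windows of Lef1 the correlation was 0.35, with the same sign at 60 (66.7%). Taking the most accessible window of each separate region, they were 0.67 over 32 regions of Tcf7 and 0.26 over 56 of Lef1. Over the 66750 windows of the whole table with 50 or more counts on average the correlation was 0.11, with the same sign at 50.6%. These are descriptions across sites, which share libraries, and neighbouring windows share reads. The member windows were not cut at 50 counts and lie close together, so the whole table is not a like reference for them. The interaction of genotype and day passed the test at no member, and its log2 values ran from -0.20 to 0.65 at Tcf7 and from -0.85 to 0.83 at Lef1.

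**Figure D4:**
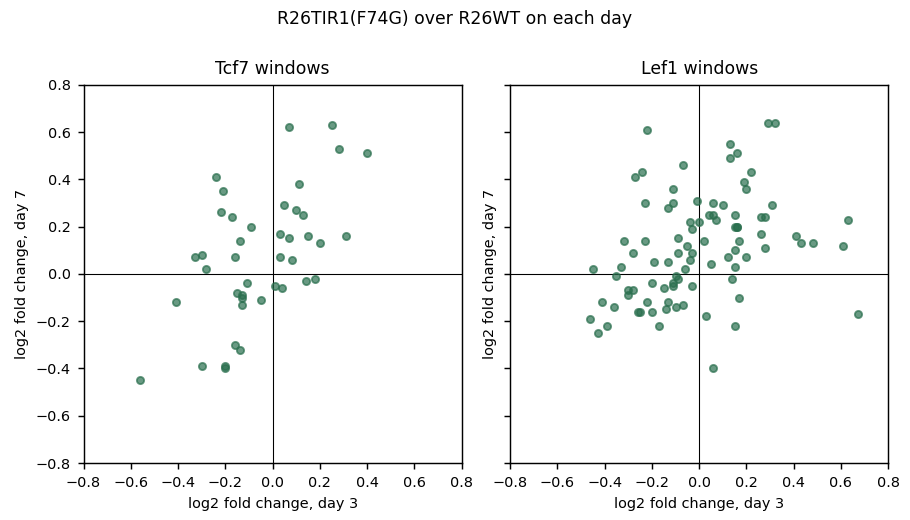
Log2 fold change, R26TIR1(F74G) over R26WT, on day 3 (horizontal axis) and day 7 (vertical axis), with 1 point for each of the 42 windows of Tcf7 and the 90 of Lef1. The Pearson correlation is 0.56 for Tcf7 and 0.35 for Lef1.

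Between day 3 and day 7 no window of either gene passed the test in either genotype. In R26WT mice the Tcf7 windows 432 and 400 bp upstream of the start, which overlap, had the smallest p. The first had 8.05, 7.28, 6.21 and 6.37 CPM on day 3 and 5.23, 5.35 and 4.20 CPM on day 7, without overlap, a log2 fold change of -0.46 (95% interval -0.81 to -0.11, edgeR adjusted p = 0.899). In R26TIR1(F74G) mice it had 5.40, 6.71, 4.55 and 6.60 CPM on day 3 and 7.17, 5.42 and 7.49 CPM on day 7, a log2 fold change of 0.19 (-0.16 to 0.54). The difference between these changes, the interaction, was 0.65 (0.16 to 1.14, edgeR adjusted p = 0.729). The second window stood at -0.38 (-0.72 to -0.04, adjusted p = 0.936) in R26WT mice. At Lef1 the windows 29624 bp downstream and 83781 bp upstream had log2 fold changes of -0.55 (-1.02 to -0.09, edgeR adjusted p = 0.92) and -0.50 (-0.92 to -0.08, adjusted p = 0.924) from day 3 to day 7 in R26WT mice. In R26TIR1(F74G) mice the smallest p at Lef1 was at 2 overlapping windows of low accessibility, 14696 and 14613 bp downstream, at 0.73 (0.14 to 1.31, edgeR adjusted p = 0.609) and 0.65 (0.03 to 1.28, adjusted p = 0.699). Those windows had means of 1.37 and 1.31 CPM. At Tcf7 the smallest p in R26TIR1(F74G) mice was at the windows 30227 and 35275 bp upstream, with 0.38 (0.00 to 0.75, edgeR adjusted p = 0.721) and -0.34 (-0.69 to 0.00, adjusted p = 0.724). Before adjustment, p was under 0.05 at 8 of 132 members in R26WT mice (6.06%, against 5.25% of all windows) and at 2 in R26TIR1(F74G) mice (1.52%, against 6.96%).

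The accessibility of each gene summed over all its windows overlapped between genotypes on both days. Reads in overlapping windows enter such a sum more than once. Tcf7 had 263, 263, 252 and 271 CPM in R26WT and 297, 255, 229 and 249 CPM in R26TIR1(F74G) mice on day 3. On day 7 it had 263, 234 and 249 against 266, 251 and 260 CPM. The R26TIR1(F74G) libraries of day 3 spread the most (257 ± 28.7 CPM, SD, n = 4, against 262 ± 7.72 in R26WT). Lef1 had 410, 425, 432 and 464 CPM in R26WT and 461, 442, 399 and 397 CPM in R26TIR1(F74G) mice on day 3. On day 7 it had 439, 408 and 386 CPM against 424, 430 and 451 CPM, again with overlapping groups.

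**Figure D5:**
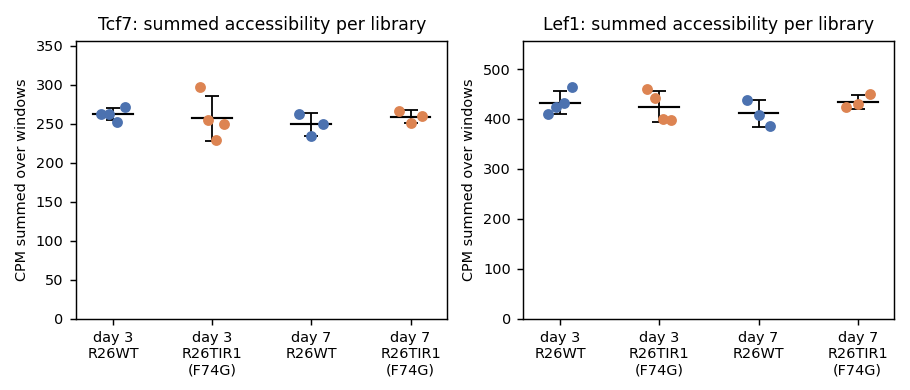
Summed CPM over all windows of Tcf7 and of Lef1 (vertical axis) in each library (points), by day and genotype (horizontal axis), with mean and SD as bars. Values lie between 229 and 297 CPM at Tcf7 and between 386 and 464 CPM at Lef1, with overlapping groups.

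In edgeR's test of counts summed per gene, the log2 fold change between genotypes was 0.06 ± 0.07 (SE) at Tcf7 and 0.08 ± 0.07 at Lef1 on day 7, with adjusted p-values of 0.92 and 0.891. On day 3 it was -0.03 ± 0.07 and -0.03 ± 0.06, with adjusted p-values of 0.846 and 0.844. The 95% intervals on day 7 ran from 0.941-fold to 1.15-fold at Tcf7 and from 0.956-fold to 1.17-fold at Lef1, and on day 3 from 0.885-fold to 1.08-fold and from 0.897-fold to 1.07-fold. Over both days the estimates were 0.01 ± 0.05 and 0.02 ± 0.05, with adjusted p-values of 0.966 and 0.912. The interaction was 0.09 ± 0.10 and 0.11 ± 0.09 (adjusted p = 0.774 and 0.704). From day 3 to day 7 the sums differed by -0.08 ± 0.07 and -0.07 ± 0.07 in R26WT mice and by 0.01 ± 0.07 and 0.04 ± 0.06 in R26TIR1(F74G) mice. The directions on day 3, over both days and between days in R26TIR1(F74G) mice changed with the setting, as did that of Lef1 between days in R26WT mice. Of all genes tested, 0% passed the edgeR test in the day 7, both days, interaction and between-day comparisons, and 0.0063% (1 gene) on day 3. This background depends on the method. DESeq2 called 14 gene sums on day 7, 188 on day 3, 196 over both days and 5 for the interaction. Between days it called 6 in R26WT and 47 in R26TIR1(F74G) mice. Neither Tcf7 nor Lef1 was among them.

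The genes with which TCF-1 and LEF-1 act were described as a list of 28, of which all had windows. The list holds the other family members, the β-catenin gene Ctnnb1 and its partners, the Tle corepressors, and the receptors, scaffolds, kinases and feedback inhibitors of the Wnt pathway. None of its windows passed the test in any comparison (585 tested on day 7, 582 on day 3), and none of its 28 gene sums. Before adjustment 6.32% of its windows were under 0.05 on day 7 and 6.19% on day 3, against 5.96% and 7.55% of all windows. By gene sums, 24 of 28 had a negative log2 fold change on day 3, with a median of -0.11. The median of all genes on that day was -0.058. On day 7 it was 16 of 28, with a median of -0.02, against -0.009. The day 3 median of all genes depended on the normalization. It was -0.057 with DESeq2 size factors, -0.006 with total counts and -0.001 with loess offsets. The list was not examined in those settings, and the share of all genes below 0 was not counted. The smallest p over both days was that of the corepressor gene Tle3, at -0.18 ± 0.05 (SE, edgeR adjusted p = 0.205). It was followed by the Wnt coreceptor gene Lrp5 at -0.21 ± 0.07 (adjusted p = 0.242) and by Znrf3, a ubiquitin ligase that removes Wnt receptors from the cell surface, at -0.17 ± 0.06 (adjusted p = 0.255).

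Genes of resting T cells, among them those that share high levels with Tcf7 and Lef1, were described as a list of 12. None of its windows (799 on day 7, 795 on day 3) and none of its gene sums passed the test between genotypes or between days. Its gene sums had a median log2 fold change of 0.00 on day 7 and -0.07 on day 3, where all genes had -0.009 and -0.058. The smallest p over both days was that of Ccr7, a receptor for homing to lymph nodes, at -0.16 ± 0.05 (edgeR adjusted p = 0.241). A list of 12 genes of activated Treg cells gave no call either, with medians of 0.02 on day 7 and -0.03 on day 3. Its smallest p over both days was that of Il1rl1, the receptor for IL-33, at -0.24 ± 0.09 (edgeR adjusted p = 0.273).

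The variance of counts between mice of one group was a median of 2.04 times the Poisson variance at Tcf7 and 1.52 times at Lef1, against 1.7 times over all windows. It was highest at the Tcf7 window 17643 bp downstream (4.36 times) and at the Lef1 window 7679 bp downstream (5.11 times). Across the 14 mice the summed log2 CPM of Tcf7 and that of Lef1 had a Pearson correlation of 0.703 (permutation p = 0.00394, adjusted over 4 correlations 0.0158) and a Spearman correlation of 0.684 (permutation p = 0.0092). Without the 2 libraries farthest from the median of Tcf7 the Pearson correlation was 0.576 (permutation p = 0.0543). Leaving out extremes narrows the range of Tcf7, so the drop cannot show whether the relation rests on these libraries. Within day 3 the Pearson correlation was 0.760 over 8 mice (exact permutation p = 0.0224) and within day 7 0.580 over 6 (exact permutation p = 0.275). Over 13670 genes the median correlation to Tcf7 was 0.201, and 263 genes had a higher one than Lef1. Over 13680 genes the median correlation to Lef1 was 0.328, and 1092 genes had a higher one than Tcf7. Among the genes most like Tcf7 over the 14 libraries, by Pearson correlation of summed log2 CPM, were Il21r (0.888), Cers5 (0.878), Gm52008 (0.876) and Ms4a8a (0.871). Those most like Lef1 were Rps6ka5 (0.920), Aurka (0.915), Sfxn5 (0.912), Gpi1 (0.911) and Elovl5 (0.909). The permutation p-values refer to a correlation of 0, which is below the median over genes, so they do not single out this pair. These likenesses are descriptions over libraries that differ in depth.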

How the data were processed

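Per the labels, Treg cells of Foxp3AID mice given 5-ph-IAA were profiled by ATAC-seq in 14 libraries. The deposited values are counts, which the authors made by aligning reads to mm10 with Bowtie2, calling peaks with MACS2 and counting at summits with featureCounts. The steps from reads to counts, including duplicates and the transposase offset, could not be varied. Counts without molecular identifiers are not independent molecules, and intervals within a library would cover counting error only.

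Columns were matched to samples by mouse, and 0 columns were left over. Counts were analyzed with edgeR 4.0.16 and DESeq2 1.42.0 in R 4.3.3, and Python 3.11.15. Each comparison was tested with the quasi-likelihood method of edgeR with TMM factors, on windows that averaged 10 or more counts in the libraries compared, adjusted by Benjamini-Hochberg over all windows or, for counts summed over the windows of a gene, over all genes. Intervals of log2 fold changes use the t quantile of each test. The two-sided test was run on simulated counts with planted changes, with an outcome not reported here. That run does not show how often differences as small as most of those seen here would be found. Correlations used log2 of summed CPM plus 0.5 and 100000 resamples, or all orders under 10 libraries. Start sites are those of RefSeq on GRCm38, with strand for 21188 of 21631 protein-coding genes. Coordinates are given as in the deposited table.

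Named windows are, per gene, the one nearest the start, the 5 with the highest mean CPM and, for each of 5 comparisons, the 2 with the smallest p. Others were named after their values were seen. Genes named from the lists are among the 3 with the smallest p, and those named for likeness are among the 5 with the highest correlation, with a mean summed count of at least 100 and a start over 1 Mb away. The members, lists and tests were chosen with earlier results of these data known. Some values are not reported here. Alternatives were other normalizations, filters, thresholds, distances, blocks, left-out libraries and DESeq2.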

Additional observations from a re-analysis of the deposited data

Results flagged for a closer look

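In the groups of 4 of day 3, 1 library stood far from the other 3 in 5 of 54 groups of values examined, where chance gives about 1 in 20. At the Tcf7 window 16419 bp upstream, R26WT replicate 4 had 22.0 CPM and the others 16.4 to 17.4. At the Tcf7 window 30227 bp upstream, R26WT replicate 3 had 4.51 CPM and the others 3.51 to 3.64. The one apart in the other cases was R26TIR1(F74G) replicate 1, whose depth was the lowest of all. It had 17.4 CPM at the Tcf7 window 7825 bp downstream, where the others had 13.4 to 13.6. At the overlapping Lef1 windows 47301 and 47264 bp downstream it had 25.0 and 24.5 CPM, where the others had 16 to 16.8 and 15.5 to 16.5, so these count as 1 case. The part of its depth in these values was not tested.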

How the results depend on the processing

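Calls among the members did not depend on the processing, with 1 exception. In 127 of 128 values under alternatives, over 6 comparisons, 0 member windows were called, as in the report, and with both libraries of lowest depth left out 1 was called over both days, the Tcf7 window 16419 bp upstream at -0.439. Its adjusted p over all settings, otherwise 0.0768 (DESeq2) to 0.724, was then 0.0271, and 0.0815 without day 3 R26TIR1 replicate 1 alone. The cause was not tested. Of 220 values for the summed counts, none called, 192 kept their direction and 28 did not. On day 3 the sums of Tcf7 and Lef1 turned to 0.016 and 0.022 with total counts, 0.016 and 0.009 with loess offsets, 0.024 and 0.059 within 2 kb of the start, and 0.025 and 0.03 with DESeq2. With 1 library left out they ranged from -0.105 to 0.022 and from -0.07 to 0.006, positive at Tcf7 without R26TIR1 replicate 3 and at Lef1 without R26WT replicate 4 or R26TIR1 replicate 3 or 4. Over both days they became -0.036 and -0.024 without both libraries of lowest depth and ranged from -0.028 to 0.038 and from -0.003 to 0.04 with 1 left out. They were negative at Tcf7 without day 3 R26TIR1 replicate 1, day 7 R26WT replicate 2 or day 7 R26TIR1 replicate 1, and at Lef1 without day 7 R26WT replicate 3. Between days in R26TIR1(F74G) mice Tcf7 became -0.018 with total counts, -0.028 with loess offsets, -0.002 with the mouse name prefix and with 1 window per group of overlapping ones, and -0.022 with DESeq2. It ranged from -0.034 to 0.085 with 1 left out, negative without day 3 replicate 3 or day 7 replicate 1, and Lef1 became -0.002 with loess offsets and with DESeq2. Between days in R26WT mice Lef1 became 0.042 within 2 kb.

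Of 947 values for the named windows, 926 kept their direction and gave no call, among them windows whose DESeq2 adjusted p was undefined over both days. The Tcf7 window 40 bp downstream became 0.007 on day 3 with loess offsets, 0.027 with a filter at 50 and 0.01 with the prefix, and ranged from -0.189 to 0.045 on day 3 and from -0.294 to 0.069 on day 7 with 1 library left out. With the prefix the windows at Tcf7 17643, Lef1 1799 and Lef1 2145 bp became 0.0, 0.003 and -0.069 on day 7. The prefix is the letters that open the mouse name, AC or E. On day 7 only R26TIR1(F74G) replicate 3 had E, so there the setting is not separate from leaving that library out. With 1 left out these windows ranged from -0.262 to 0.08, from -0.112 to 0.102 and from -0.069 to 0.111. Lef1 at 1799 bp became 0.041 with loess offsets and 0.002 with the filter at 50 on day 3. With 1 left out, Tcf7 at 30227 bp upstream ranged from -0.092 to 0.157 on day 3 and Lef1 at 613 bp from -0.025 to 0.229 on day 7. Same-numbered mice did not deviate together (correlations of -0.0685 to 0.0666 over windows). This gives no sign that the numbers pair the mice, but with so few mice per group it cannot exclude it. With the replicate block 0 member windows were called in each comparison, and the sums of Tcf7 and Lef1 on day 7 were 0.06 and 0.082. The block moved the calls over all windows from 11 to 52 on day 7, from 27 to 14 over both days, from 0 to 4 on day 3, from 0 to 62 between days in R26TIR1(F74G) mice and from 7 to 16 in R26WT mice. Over all windows DESeq2 called 0 on day 7 and 155 over both days, where it left the adjusted p of 210066 windows undefined, 110 of the 132 members among them. The intervals of 121 members on day 7 and 123 on day 3 lay within a 2-fold change, and those of the others reached past it.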
